A study of Homo sapiens with 16 samples.

Results

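The polysome loading of an mRNA is the log2 ratio of its level in polysomal sucrose fractions to its level in cytoplasmic RNA. The change of loading in H69 cells is the loading under EIF6 knockdown (sheIF6) minus the loading under a control hairpin (shNTC). It was computed for every gene with enough counts, 23100 of the 56832 gene names in the deposited table. It rests on 8 of the 16 libraries of the series, 2 each of H69 sheIF6 polysomal, H69 sheIF6 cytoplasmic, H69 shNTC polysomal and H69 shNTC cytoplasmic RNA. The other 8 are the same 4 groups in a second line, H69M. H69 is an established human small cell lung cancer line. The sheIF6 cells, labelled eIF6 knockdown, are a stable lentiviral line with a hairpin against EIF6, and the shNTC cells, labelled WT, carry the control hairpin. The labels give the treatment as normal for all of them and say neither how many hairpins were used nor whether a stable line is a pool or a clone. Both kinds of cells were kept in RPMI medium with serum. The labelled hypotonic lysis buffer for cytoplasmic RNA contains cycloheximide, which freezes elongating ribosomes on the mRNA.

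eIF6 sits on the large (60S) ribosomal subunit at the face that meets the small (40S) subunit, so a 60S subunit with eIF6 on it does not join, and it also takes part in the maturation of the 60S subunit in the nucleolus. It is released from 60S by the GTPase EFL1 together with SBDS, the protein mutated in Shwachman-Diamond syndrome. In mouse liver, eIF6 has been linked to the translation of mRNAs with upstream reading frames, such as Cebpb, Cebpd and Atf4, and through them to lipid synthesis. Polysome loading reads how an mRNA is shared between translating ribosomes and the rest of the cytoplasm. A loading value here is relative to the other genes of the same library, so a fall of polysomes that affected all mRNAs alike would not be seen.

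The hairpin's target was lower in every sheIF6 library. EIF6 (chr20:35278911-35284985, minus strand, GENCODE v29) stood at 234 and 220 CPM (counts scaled to a common library total) in sheIF6 polysomal RNA against 424 and 389 in shNTC polysomal RNA, and at 65.0 and 67.7 CPM in sheIF6 cytoplasmic RNA against 116 and 112 in shNTC cytoplasmic RNA. The groups did not overlap in either fraction. The EIF6 message was reduced alike in both fractions, and its own loading was 1.85 and 1.70 in sheIF6 cells against 1.87 and 1.79 in shNTC cells, a change of -0.06 (SE 0.415).

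The 8 libraries held 41412177 to 45564335 counts. All 9 neuroendocrine markers had counts in every H69 library, with sums of 1870 to 3779 CPM (138 to 617 CPM in H69M), as the label of the line asks. A list of 10 H69M markers summed to 188 to 392 CPM in H69 libraries and to 4595 to 8284 CPM in H69M libraries, with 1 to 4 of the 10 at 0 in each H69 library. Libraries with the same number resembled each other across groups. Over 13964 genes with a mean count of at least 100, the interquartile range of the difference in loading was 0.572 between the 2 sheIF6 pairs and 0.634 between the 2 shNTC pairs. It was 0.311 between the sheIF6 and shNTC pairs numbered 1 and 0.366 between those numbered 2. The loading profiles of the knockdown and its control of the same number were therefore closer than those of replicates of the same hairpin.

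No gene changed its loading past an adjusted p of 0.05 in edgeR's quasi-likelihood test over all 16 libraries (0 of 23100, 0%). At an unadjusted p under 0.05 there were 383 genes (1.66%), of which 232 were higher in sheIF6 (1.00%) and 151 lower (0.654%). By the same limits DESeq2 called 3 genes (0.0130%) and limma-voom called 0, with 425 and 290 genes at an unadjusted p under 0.05. Both sheIF6 pairs lay above both shNTC pairs for 11.2% of the genes and below them for 11.0%, and 48.8% of genes had a log2 change above 0. Among the 13964 genes with more counts the changes were small. Their 5th and 95th percentiles were -0.40 and 0.47, the median was -0.01, and 92.2% lay within 0.5 of 0.

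The edgeR test over all 16 libraries had no block for library number and was coarse. On simulated counts it called 0 of 50 genes changed 2-fold, 11 of 50 changed 4-fold and 31 of 50 changed 8-fold. The median SE of the 13964 genes was 0.461, and the 95% interval lay within 1 log2 unit on both sides of 0 for 36.0% of them. A fit of the H69 libraries alone, with library number as a block within each fraction, had a median SE of 0.196. In it the interval lay within 1 log2 unit for 73.9% (10312 of 13961), and 4 of 20585 genes were called (0.0194%). With the counts of overlapping genes summed, the same fit called 0 of 20102, with 367 at an unadjusted p under 0.05. A change of loading of 2-fold or more thus lay outside the interval for most genes with good counts in that fit. The fit was added after the data had been seen, and the labels do not state a pairing by number. In the planned fit of H69 alone with a block by numbered pair the share was 74.5%.

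The most and the least loaded gene lists were the same in both cells. In sheIF6 cells 2232 genes differed between polysomal and cytoplasmic RNA (9.66%), 1307 higher and 925 lower on polysomes. In shNTC cells there were 2732 (11.8%), 1531 higher and 1201 lower. Those higher on polysomes were 5.66% of all genes in sheIF6 and 6.63% in shNTC cells. Proteasome subunits were the most loaded list, with a median of 1.40 in sheIF6 and 1.43 in shNTC cells, and 25 of 31 were higher on polysomes in each. Glycolytic enzymes followed with medians of 1.23 and 1.28, with 11 and 12 of 20 higher on polysomes. Cytosolic chaperones had 0.99 in both, and mitochondrial ribosomal proteins had 0.93 in sheIF6 and 0.90 in shNTC cells. The mitochondrially encoded mRNAs, which are translated inside mitochondria, had medians of -2.29 and -2.64, with 9 of 13 lower on polysomes in sheIF6 cells and 11 of 13 in shNTC cells. Nuclear-retained long noncoding RNAs such as MALAT1 had -1.76 and -1.90, with 8 of 13 lower in each. Lists that H69 expresses little differed more, but not alike in both numbered pairs. The median loading was 0.66 in sheIF6 and -0.43 in shNTC cells for non-neuroendocrine genes. It was 0.15 and -0.49 for fibroblast matrix genes, and -0.01 and -0.47 for YAP and TEAD targets. Between the pairs numbered 1, sheIF6 minus shNTC was 1.12, 0.71 and 0.76 for the 3 lists in turn. Between the pairs numbered 2 it was -0.23, -0.34 and -0.16. All genes together had medians of -0.11 in sheIF6 and -0.14 in shNTC cells.

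**Figure D1:**
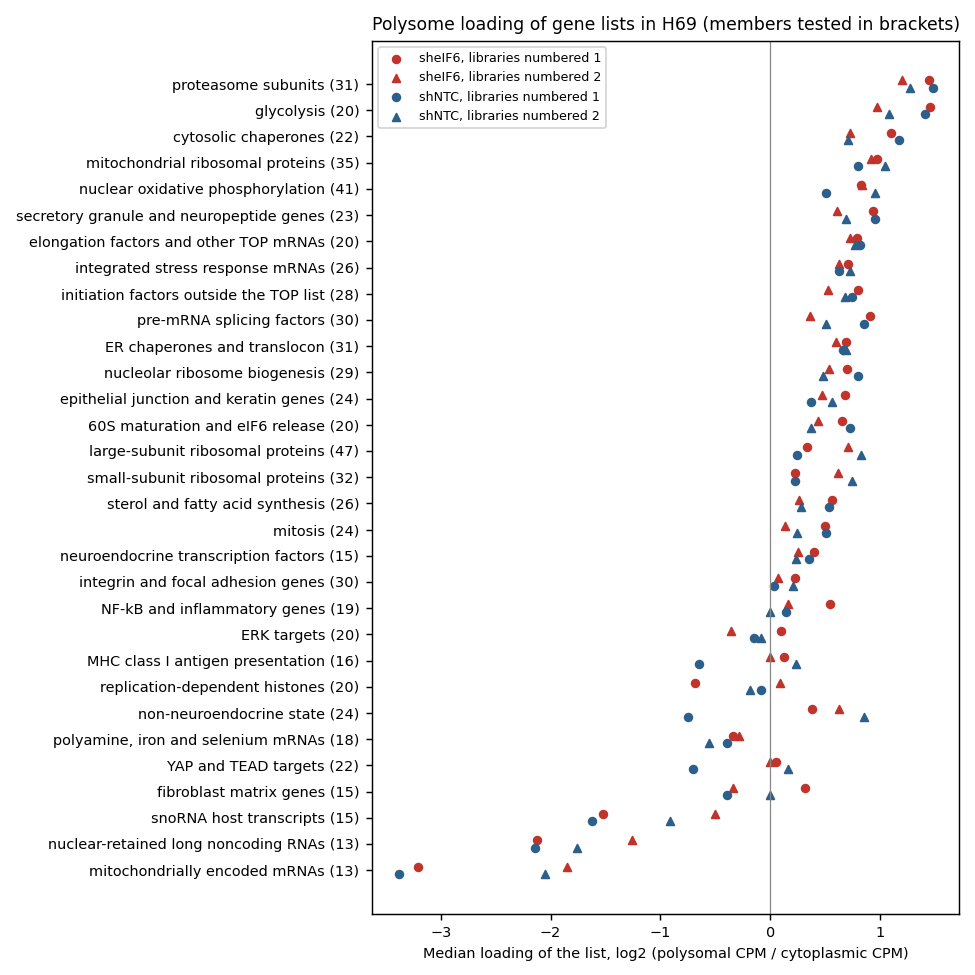
Median polysome loading of 31 gene lists in H69 (horizontal axis, log2 of polysomal over cytoplasmic CPM), a point for each numbered pair of sheIF6 libraries (red) and shNTC libraries (blue). Proteasome and glycolysis genes stand at the top and mitochondrially encoded mRNAs at the bottom in all 4 pairs, and circles (number 1) and triangles (number 2) are often farther apart than red and blue of the same shape.

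Ribosomal protein mRNAs and those of elongation factors begin with a terminal oligopyrimidine (TOP) tract, a C at the cap followed by pyrimidines, through which mTOR signalling controls their translation. By RefSeq (GRCh38.p14), 71.4% of the ribosomal protein, elongation factor and other TOP genes with a promoter entry (55 of 77) had a C and at least 4 further pyrimidines at the annotated start, against 4.04% of 27305 promoters. The starts of 4 such mRNAs, of RPL3 with a shorter annotated tract, and of EIF6 and ATF4 with none are shown from 5 bases before the start to 20 from it, 5′ to 3′ on the gene's strand, with the tract in capitals.
EEF1A1 (chr6:73521013-73521037): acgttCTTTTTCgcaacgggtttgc
EEF2 (chr19:3985444-3985468): gcgttCTCTTCCgccgtcgtcgccg
RPS3 (chr11:75399513-75399537): cacttCCTTTCCTTTCagcggagcg
TPT1 (chr13:45341164-45341188): tcggcCTTTTCCgcccgctcccccc
RPL3 (chr22:39319604-39319628): ccggcCTCTaccggcgggatttgat
EIF6 (chr20:35284698-35284722): agctggtgtgaggggaacctgggag
ATF4 (chr22:39520554-39520578): acggcagccatttctactttgcccg

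None of these TOP mRNAs changed its loading past the test. EEF1A1, which brings aminoacyl-tRNA to the ribosome, had loadings of 0.86 and 0.59 in sheIF6 against 0.93 and 0.72 in shNTC cells, a change of -0.11 (SE 0.393). EEF2, the translocation factor, had 0.73 and 0.49 against 0.75 and 0.66, a change of -0.09 (SE 0.316). The ranges of the 2 groups overlapped for both genes. RPS3, a small-subunit protein, changed by -0.09 (SE 0.369), TPT1, the translationally controlled tumour protein, by -0.19 (SE 0.358), and RPL3, a large-subunit protein, by -0.13 (SE 0.379). Over 595 genes with a TOP start the median change was -0.02, and over 11283 genes with another start it was -0.01.

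The 47 large-subunit ribosomal protein genes had a median change of -0.06, against 0.00 for all genes tested, and 14 of the 47 lay above 0. Their median loading was 0.33 and 0.70 in the sheIF6 pairs numbered 1 and 2 against 0.25 and 0.83 in the shNTC pairs. The pair number moved these genes more than the hairpin did. Both sheIF6 pairs lay below both shNTC pairs for 6 of 47 (11.0% of all genes did), RPL3, RPL5 and RPL29 among them, and both lay above for 0. The members ran from -0.29 (RPL29, SE 0.431) to 0.24 (RPL21, SE 0.445). The median moved between -0.27 without sheIF6 polysomal replicate 2 and 0.17 without shNTC polysomal replicate 2. Here and below, leaving out a library also leaves the numbers unbalanced between the groups, so such shifts include the difference between numbers. In the H69 libraries alone with the number block, all 47 had intervals within 1 log2 unit.

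The 32 small-subunit genes had a median change of 0.00, with 16 above 0, and moved between -0.24 and 0.25 on leaving out the same libraries. RPS15A, the member with the lowest change, had -0.25 (SE 0.474). RPS18 had the highest, 1.29 (SE 2.55), with 36.5 and 50.1 CPM in sheIF6 polysomal RNA, 2.12 and 9.54 in sheIF6 cytoplasmic RNA, 0.158 and 124 in shNTC polysomal RNA, and 38.7 and 2.22 in shNTC cytoplasmic RNA. These levels jumped between libraries of the same group, and the RPS18 change went from -1.92 without shNTC cytoplasmic replicate 1 to 9.89 without shNTC polysomal replicate 2. Ribosomal protein genes have many processed pseudogenes with which they can share reads. EEF1G, a subunit of the elongation factor complex, was alike uneven: its level was 1409 and 1132 CPM in sheIF6 polysomal RNA against 1395 and 225 CPM in shNTC polysomal RNA. Its change was 0.48 (SE 0.947) and became -0.30 without shNTC polysomal replicate 2, the low library, and 2.33 without replicate 1.

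The machinery around eIF6 itself stayed near 0. Among 20 genes for 60S maturation and eIF6 release, the median change was -0.01 and all 20 had intervals within 1 log2 unit in the fit with the number block. SBDS had loadings of 1.03 and 0.63 in sheIF6 against 0.93 and 0.63 in shNTC cells, a change of 0.05 (SE 0.306). EFL1 had 0.53 and 0.40 against 0.60 and 0.07, a change of 0.18 (SE 0.360), which became -0.24 without shNTC cytoplasmic replicate 2 and 0.51 without replicate 1. The extremes of the list were LSG1, a GTPase of cytoplasmic 60S maturation, at -0.20 (SE 0.302) and DNAJC21, a chaperone of the same pathway, at 0.18 (SE 0.310). Initiation factors outside the TOP list had a median of -0.03 over 28 genes, from EIF4H, which assists the helicase eIF4A, at -0.24 (SE 0.283) to EIF5B, the GTPase of subunit joining, at 0.19 (SE 0.392). The 29 genes of nucleolar ribosome biogenesis had a median of -0.04, from UTP4 at -0.29 (SE 0.398) to UTP20 at 0.26 (SE 0.322), both components of the small-subunit processome.

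No integrated stress response mRNA passed the test, ATF4, CEBPB and CEBPD among them, whose mouse counterparts were named above for upstream reading frames. ATF4, the transcription factor of the integrated stress response, had 137 and 220 CPM in sheIF6 polysomal RNA and 216 and 221 in sheIF6 cytoplasmic RNA, against 145 and 224 CPM in shNTC polysomal RNA and 249 and 216 in shNTC cytoplasmic RNA. Its loading was -0.66 and -0.01 in sheIF6 and -0.77 and 0.05 in shNTC cells, a change of 0.04 (SE 0.827), and the values went with the number of the pair. DDIT3, which encodes the stress factor CHOP, changed by -0.04 (SE 1.05), CEBPB by 0.09 (SE 0.825) and CEBPD by 0.10 (SE 0.492). The 26 integrated stress response mRNAs had a median of -0.02, with 10 above 0 and 0 at an unadjusted p under 0.05. The main fit was coarse for them, with 2 of the 26 intervals within 1 log2 unit. In the H69 libraries alone with the number block 25 were. CHAC1, which degrades glutathione, had the lowest change (-0.43, SE 1.55), and SLC7A11, the cystine transporter, the highest (0.28, SE 0.557).

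No lipid or energy gene passed the test either. FASN, fatty acid synthase, had loadings of 0.01 and 0.08 in sheIF6 against -0.16 and -0.08 in shNTC cells. Both sheIF6 values lay above both shNTC values, but the change was 0.16 (SE 0.701) and became -0.06 without shNTC cytoplasmic replicate 1. The 26 sterol and fatty acid synthesis genes had a median of -0.09 with 7 above 0, from MVK, mevalonate kinase, at -0.27 (SE 0.563) to ELOVL6, a fatty acid elongase, at 0.21 (SE 0.388). Glycolysis had a median of -0.07 over 20 genes, nuclear-encoded oxidative phosphorylation 0.00 over 41, mitochondrial ribosomal proteins 0.03 over 35 and proteasome subunits -0.04 over 31. None of their members had an unadjusted p under 0.05. PSMB3 reached 0.56 (SE 1.76) and was uneven between libraries, with 33.7 and 22.9 CPM in sheIF6 cytoplasmic RNA against 7.96 and 37.3 CPM in shNTC cytoplasmic RNA. Without shNTC cytoplasmic replicate 2 its change was -0.95.

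The 3 least loaded lists had median changes above 0. snoRNA host transcripts carry snoRNAs in their introns, and their spliced RNA mostly has short reading frames. Their median change was 0.39 and 13 of 15 lay above 0, with 0 at an unadjusted p under 0.05. C6orf48 (SNHG32) had 8.53 and 15.1 CPM in sheIF6 polysomal RNA and 20.4 and 23.9 in sheIF6 cytoplasmic RNA, against 6.18 and 7.13 CPM in shNTC polysomal RNA and 18.2 and 20.4 in shNTC cytoplasmic RNA. Its loadings of -1.25 and -0.66 in sheIF6 cells lay above the -1.55 and -1.51 of shNTC cells, and the change was 0.63 (SE 0.461). It was the sole member of the 15 whose groups did not overlap. Of all genes tested, 11.2% had both sheIF6 pairs above both shNTC pairs and 11.0% had both below. SNHG3 changed by 0.57 (SE 0.520), EPB41L4A-AS1 by 0.81 (SE 0.804) and LRRC75A-AS1 (SNHG29) by -0.22 (SE 0.373).

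Between pairs of the same number, numbers 1 and 2 in turn, the median loading of snoRNA hosts was higher in sheIF6 by 0.10 and 0.42. The difference was 0.17 and 0.20 for mitochondrially encoded mRNAs and 0.02 and 0.50 for nuclear-retained RNAs. The sign of the median changes turned on leaving out single polysomal libraries, which also leaves the numbers unbalanced between the groups. The median of the snoRNA hosts was -0.29 without sheIF6 polysomal replicate 2 and -0.04 without shNTC polysomal replicate 1, and it was 0.86 and 0.90 without the other replicate of each. Mitochondrially encoded mRNAs behaved alike, with a median of 0.24 and 10 of 13 above 0. Their median was -0.70 without sheIF6 polysomal replicate 2 and -0.25 without shNTC polysomal replicate 1. MT-CO1, a subunit of cytochrome oxidase, had loadings of -3.21 and -1.78 in sheIF6 against -3.38 and -2.05 in shNTC cells, so the number of the pair set the level and the hairpin moved it little. MT-ND1 changed by 0.55 (SE 0.854) and MT-ND5 by -0.06 (SE 0.645). The mitochondrial share of all counts was 0.434% and 1.38% in sheIF6 polysomal replicates 1 and 2 and 0.384% and 0.867% in shNTC polysomal replicates 1 and 2. Its part in these changes was not tested. Nuclear-retained RNAs had a median of 0.16, with 12 of 13 above 0, and -0.30 and -0.09 on leaving out the same libraries. MALAT1 was at 26.4 and 71.2 CPM in sheIF6 polysomal RNA against 22.3 and 56.7 CPM in shNTC polysomal RNA, a change of loading of 0.44 (SE 0.767) that was -0.45 without sheIF6 polysomal replicate 2.

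**Figure D2:**
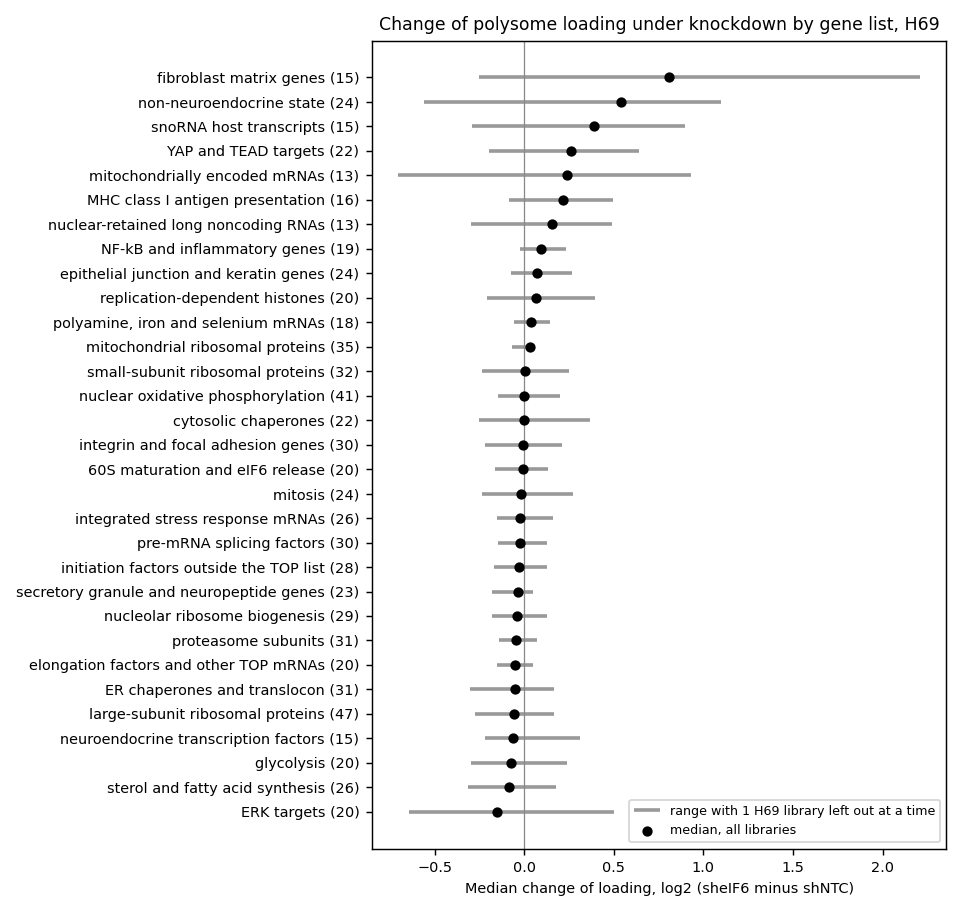
Median change of loading of each of 31 gene lists in H69 (points, log2, sheIF6 minus shNTC) with the range of the median when each H69 library is left out in turn (grey bars). Every bar crosses 0, and those of fibroblast matrix, non-neuroendocrine and mitochondrially encoded genes, from -0.25 to 2.21, -0.56 to 1.10 and -0.70 to 0.93, are among the widest. Leaving out a library also leaves the library numbers unbalanced between the groups.

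The 2 largest list medians belonged to genes that H69 expresses little. Fibroblast matrix genes had a median of 0.81 (12 of 15 above 0, 3 at an unadjusted p under 0.05), and non-neuroendocrine genes 0.54 (20 of 24, 3 at that limit). YAP and TEAD targets, of which H69 also has little, had 0.26 (14 of 22, 3 at that limit). Of all genes tested, 48.8% lay above 0 and 1.66% were at that limit, 1.00% as higher in sheIF6. VIM, an intermediate filament gene of mesenchymal cells, had 1.21 and 0.585 CPM in sheIF6 polysomal RNA and 0.206 and 0.204 in sheIF6 cytoplasmic RNA. In shNTC cells it had 0 and 1.66 CPM in polysomal RNA and 17.9 and 0.120 in cytoplasmic RNA. A lone library, shNTC cytoplasmic replicate 1, was high, and without it the VIM change of 5.54 (SE 2.38) became -0.66. CTGF, a YAP target that encodes a matricellular protein, likewise had 6.89 CPM in that library and at most 0.303 CPM in the other 7, and its change of 6.60 (SE 2.57) became 0.25 without it. Without the same library the medians of the 3 lists were -0.25, -0.56 and -0.20.

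Both shNTC libraries numbered 1 had higher sums of the other cell types' markers than the other libraries of their fraction. The 9 fibroblast markers summed to 551 CPM in shNTC cytoplasmic replicate 1, against 290 CPM in shNTC cytoplasmic replicate 2 and 329 and 238 CPM in the sheIF6 cytoplasmic libraries. The H69M markers summed to 329 CPM there, against 188 CPM in replicate 2 and 282 and 220 CPM in the sheIF6 cytoplasmic libraries. In shNTC polysomal replicate 1 the sums were higher still, 594 CPM of fibroblast markers and 392 CPM of H69M markers. Not all members took part: 2 of the 9 fibroblast markers and 4 of the 10 H69M markers were at 0 in that library. The sheIF6 polysomal libraries had 358 and 197 CPM of fibroblast markers and 360 and 307 CPM of H69M markers, and shNTC polysomal replicate 2 had 212 and 251 CPM of the same lists. Whether other cells were present, and what part they had in these changes, was not tested. Neuroendocrine genes, which H69 does express, stayed near 0: transcription factors had a median of -0.06 over 15 genes and secretory granule genes -0.04 over 23. INSM1, a neuroendocrine transcription factor, changed by 0.05 (SE 2.22) and CHGA, chromogranin A, by 0.02 (SE 1.66), with wide errors for both. These errors take in the spread between H69M libraries, where the neuroendocrine markers are low. In the main fit 0 of the 15 transcription factors had intervals within 1 log2 unit, and in the H69 libraries alone with the number block 11 did.

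The 24 genes with the smallest p among those with non-overlapping groups, 12 in each direction, are a description of the extremes, since they were picked by this contrast. The higher genes were ZNF320, ZBED6, GDF1, DDTL, BTN3A2, FAM229B, GTF2H2, FRG1, C11orf74, ZNF91, PPT2 and VWF. The lower genes were HMCN1, ERCC5, ZNF468, VPS33B, GTF2H2C, MARCH1, ACBD7, ZNF175, CDR1, FUOM, FICD and PCDHAC2. In GENCODE v29, 7 of the 24 (29.2%) share exon bases with another gene on the same strand, against 8.31% of the 16402 tested genes found there. Others could share reads in other ways: GTF2H2 and GTF2H2C are near-identical copies, DDTL overlaps its paralogue DDT on the other strand, and C11orf74, FICD and CDR1 also overlap genes on the other strand.

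**Figure D3:**
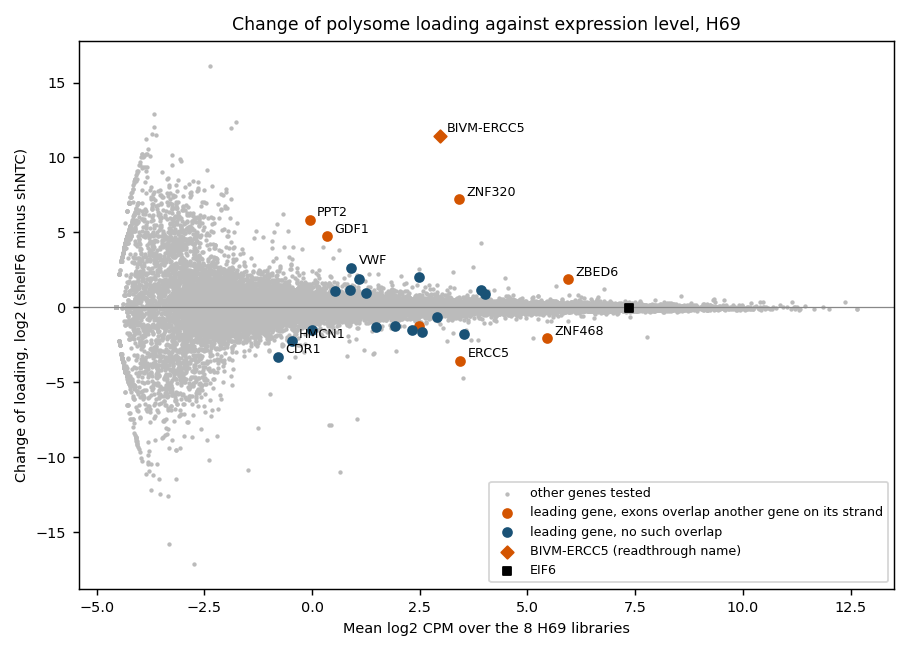
Change of polysome loading of each of the 23100 tested genes (vertical axis, log2, sheIF6 minus shNTC) against its mean log2 CPM over the 8 H69 libraries. Genes spread widely at low level and close in on 0 at high level, and the points that stand far out above a log2 CPM of 0 include ZNF320, GDF1, PPT2, ERCC5 and ZNF468, whose exons overlap another gene on their strand (orange), while EIF6 (black square) lies near 0.

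At the nucleotide excision repair gene ERCC5 the annotation holds 3 overlapping models, BIVM (chr13:102799049-102841535), ERCC5 (chr13:102807146-102876001) and the readthrough BIVM-ERCC5 (chr13:102799110-102875994), all on the plus strand. BIVM-ERCC5 was chosen after its values were seen. It had 1022 and 1642 counts in sheIF6 polysomal RNA and 2191 and 1788 in sheIF6 cytoplasmic RNA, against 0 and 1 in shNTC polysomal RNA and 2825 and 2531 in shNTC cytoplasmic RNA. ERCC5 went the other way in the polysomal libraries, with 270 and 119 counts in sheIF6 and 843 and 1007 in shNTC. Its loading was -1.25 and -2.73 in sheIF6 against 1.87 and 1.53 in shNTC cells, a change of -3.57 (SE 1.11). The 3 models together were even: their loading was -1.16 and -0.75 in sheIF6 against -1.28 and -1.04 in shNTC cells, a change of 0.21 (SE 0.281).

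The same mirror image appeared in a cluster of zinc-finger genes on chromosome 19, where ZNF468 (chr19:52838008-52890375) overlaps ZNF320 (chr19:52863790-52897693) and ZNF28. ZNF320 had 1127 and 1535 counts in sheIF6 polysomal RNA and 394 and 196 in sheIF6 cytoplasmic RNA, against 58 and 66 in shNTC polysomal RNA and 1791 and 2530 in shNTC cytoplasmic RNA. Its loading of 1.81 and 3.21 in sheIF6 cells stood far above the -4.48 and -4.92 of shNTC cells, a change of 7.20 (SE 1.04, adjusted p = 0.385 by edgeR and 2.01e-10 by DESeq2). ZNF468 had loadings of -2.44 and -2.43 in sheIF6 against -0.58 and -0.13 in shNTC cells, a change of -2.06 (SE 0.652). With ZNF28, ZNF320 and ZNF468 summed, the change was 0.20 (SE 0.294).

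At the loci of ZBED6, GDF1, PPT2 and PCDHAC2 the summed counts also changed less than the leading gene. ZBED6, a transcription factor gene inside ZC3H11A, changed by 1.87 (SE 0.608) and ZC3H11A, an RNA-binding protein gene, by -2.02 (SE 1.58), while their sum changed by 0.10 (SE 0.394). GDF1, a growth factor gene, shares its transcript unit with the ceramide synthase gene CERS1. GDF1 had 166 and 22 counts in sheIF6 polysomal RNA and 66 and 59 in sheIF6 cytoplasmic RNA, against 0 and 36 in shNTC polysomal RNA and 382 and 275 in shNTC cytoplasmic RNA, and the sum of both genes changed by 0.28 (SE 0.527). PPT2, a lysosomal thioesterase gene, had 1 count in each sheIF6 cytoplasmic library against 94 and 76 in the shNTC cytoplasmic ones, and its sum with the readthrough PPT2-EGFL8 and EGFL8 changed by 0.12 (SE 0.534). PCDHAC2 shares its last exons with the other alpha protocadherins. Its change of -1.22 (SE 0.651) became 0.03 (SE 0.355) for the 16 models summed. GTF2H2, a TFIIH subunit gene, and GTF2H2C moved by 0.91 (SE 0.393) and -1.81 (SE 0.784), and with GTF2H2B, chosen after its values were seen, the summed counts gave -0.01. DDTL and DDT were not even when summed: DDTL changed by 2.04, and the sum had loadings of -0.06 and -1.57 in sheIF6 against -2.21 and 1.50 in shNTC cells, a mean difference of -0.46 with overlapping groups.

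**Figure D4:**
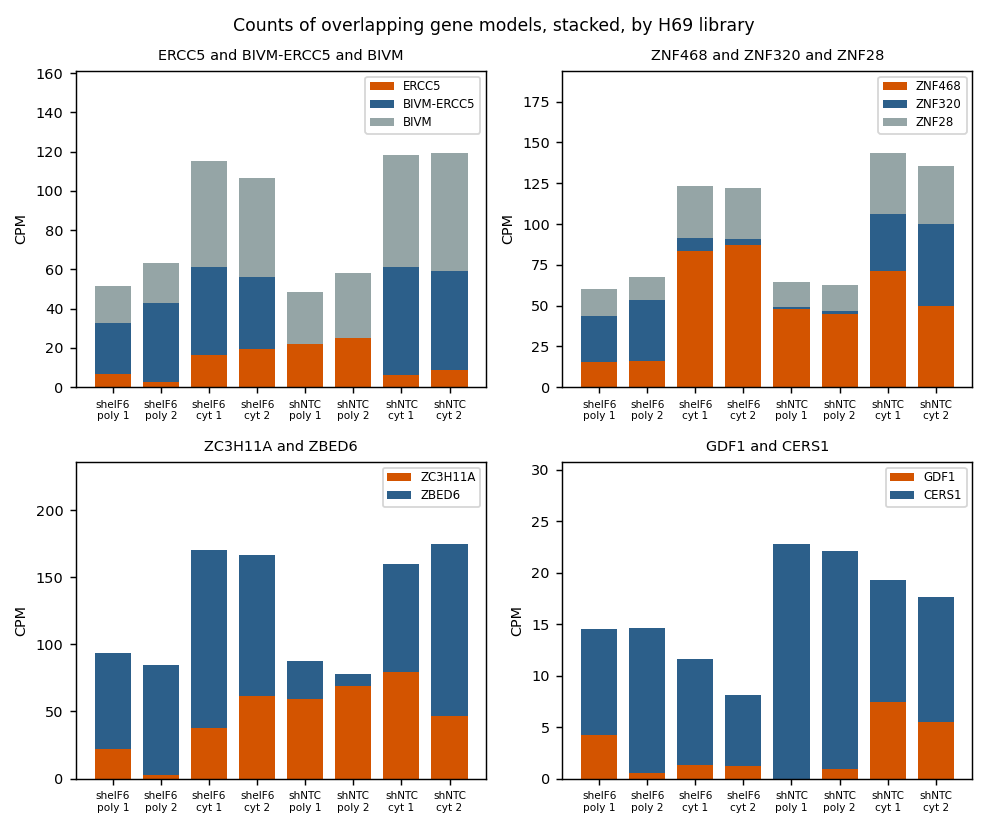
CPM of overlapping gene models stacked for each of the 8 H69 libraries (poly, polysomal; cyt, cytoplasmic), sheIF6 libraries left of shNTC libraries. At ERCC5 and at ZNF468 the colours trade places between sheIF6 and shNTC polysomal libraries while the height of the bars hardly differs, so the summed changes are 0.21 and 0.20.

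The split between such models also differed between libraries of the same group in H69M. BIVM-ERCC5 had 0 counts in H69M sheIF6 polysomal replicate 1 and 1550 in replicate 2, while ERCC5 had 1235 and 124. ZNF320 had 204 and 1745 counts in the same 2 libraries, and ZNF468 had 2559 and 634. In that group the counts of the models moved in opposite directions between replicates, as they did between the hairpins in H69. The replicates of H69M shNTC polysomal RNA were closer, with 0 and 2 counts of BIVM-ERCC5 and 1136 and 974 of ERCC5. What moved the counts was not tested. In fits of the H69 libraries alone, 3 genes were called (0.0146%), BIVM-ERCC5 and ZNF320 as higher and CTD-2192J16.20 as lower. With a block by numbered pair there were 8 (0.0389%), which added PPT2 and RP11-566K11.2 as higher and AC005538.2, ZNF468 and ERCC5 as lower. Of the 6 found in GENCODE v29, 5 overlap another gene on their strand. With overlapping genes summed, the fit without the block called 0 of 20102 and had 215 at an unadjusted p under 0.05, and the fit with the block called 3.

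Those 3 carry clone names, CTD-2192J16.20, AC005538.2 and RP11-566K11.2, and were named after their values were seen. CTD-2192J16.20 had 0 counts in both sheIF6 polysomal libraries, against 233 and 177 in the shNTC polysomal ones, and 246 and 268 in sheIF6 cytoplasmic RNA against 269 and 251 in shNTC cytoplasmic RNA. AC005538.2 had 1 and 0 counts in sheIF6 polysomal RNA against 181 and 121 in shNTC polysomal RNA. AC005538.3, which has the same clone name, had 149 and 145 counts in sheIF6 polysomal RNA against 17 and 68 in shNTC polysomal RNA. RP11-566K11.2 had counts in the libraries numbered 1 alone, 108 in sheIF6 polysomal and 149 in sheIF6 cytoplasmic RNA against 0 in shNTC polysomal and 1204 in shNTC cytoplasmic RNA.

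The other leading genes share no exon bases with another gene on their strand. HMCN1, which encodes the matrix protein hemicentin, had 2 and 3 counts in sheIF6 polysomal RNA and 16 and 24 in sheIF6 cytoplasmic RNA, against 76 and 88 in shNTC polysomal RNA and 176 and 103 in shNTC cytoplasmic RNA. It was low in both sheIF6 fractions and lower still on polysomes, with a change of loading of -2.28 (SE 0.691), which did not pass the test. VPS33B, a gene of endosome and lysosome trafficking, had 5.76 and 7.14 CPM in sheIF6 polysomal RNA and 5.02 and 4.91 in sheIF6 cytoplasmic RNA, against 9.05 and 7.85 CPM in shNTC polysomal RNA and 2.26 and 2.32 in shNTC cytoplasmic RNA, a change of -1.50 (SE 0.565). Polysomal RNA was lower and cytoplasmic RNA higher in sheIF6 cells, with no overlap in either. ACBD7, of the acyl-CoA-binding family, had 1.01 and 1.51 CPM in sheIF6 polysomal RNA against 3.16 and 3.22 CPM in shNTC polysomal RNA, at like cytoplasmic levels (6.83 and 6.95 against 7.36 and 7.50 CPM), a change of -1.23 (SE 0.567).

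FICD, an enzyme that modifies the chaperone BiP in the endoplasmic reticulum, had loadings of -0.13 and -0.46 in sheIF6 against 0.57 and 0.16 in shNTC cells, a change of -0.67 (SE 0.349). FRG1, a nuclear protein gene with copies elsewhere in the genome, had 1.56 and 2.50 against 0.46 and 1.11, a change of 1.14 (SE 0.499). BTN3A2, a butyrophilin gene, had 0.00 and 0.54 against -0.82 and -0.49, a change of 0.97 (SE 0.393). Single libraries set the size of some of the others. The VWF change of 2.65 was 1.11 without shNTC cytoplasmic replicate 1, where this endothelial clotting factor gene had 9.23 CPM against 1.92 CPM in replicate 2, and it was 5.20 without shNTC polysomal replicate 2. The MARCH1 change of -1.50 was -0.38 without shNTC polysomal replicate 2 and the FAM229B change of 1.88 was 0.89 without shNTC cytoplasmic replicate 1.

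Features of the mRNA that went with loading went far less with its change. Across 15180 protein-coding genes, loading rose with the GC content of the coding sequence, with Spearman correlations of 0.36 in sheIF6 and 0.34 in shNTC cells. The correlation of coding GC with the change was -0.07. For the length of the 3′ UTR, over 15164 genes, the correlations with loading were -0.28 and -0.25 and that with the change was -0.05. For coding length they were -0.17 in both cells and 0.01. These correlations run across genes of the same libraries and are descriptions. With the genes in 5 equal bins by coding GC, the median loading in the lowest bin was -0.43 in sheIF6 and -0.50 in shNTC cells, and in the highest it was 0.36 in sheIF6 and 0.34 in shNTC cells. The median change was 0.04 and 0.00 in the same 2 bins. Genes with 0, 1, and 2 or more ATG triplets in the annotated 5′ UTR had median changes of -0.01, 0.00 and -0.01, over 7000, 3178 and 4572 genes.

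**Figure D5:**
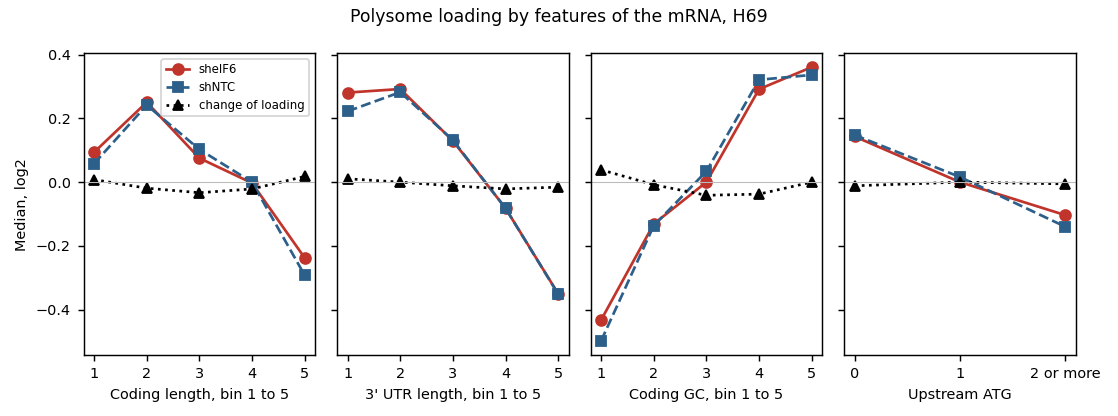
Median polysome loading (log2) in sheIF6 (red) and shNTC cells (blue) and median change of loading (black) of H69 protein-coding genes by 5 equal bins of coding length, 3′ UTR length and coding GC, and by the number of upstream ATG triplets. Red and blue nearly coincide in each panel, and the black line stays near 0 while loading runs from about -0.50 to 0.36 with coding GC.

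Set beside H69M, H69 had no gene whose change of loading differed past the limit. The test of the difference between the lines called 0 of 23100 genes (0%) in edgeR, with 384 at an unadjusted p under 0.05 (1.66%), and DESeq2 called 2. Among the 24 leading genes, 10 had the same sign in H69M, 2 of them at an unadjusted p under 0.05. The difference between lines had an unadjusted p under 0.05 for 8. Since the 24 were picked by the H69 change, which is part of that difference, the count of 8 shows nothing about the lines. ZNF320 changed by 7.20 in H69 and 6.07 in H69M, and ZNF468 by -2.06 and -2.02. The large-subunit ribosomal proteins had medians of -0.06 in H69 and -0.63 in H69M and the small-subunit ones 0.00 and -0.72, with 0 of 47 and 0 of 32 passing the test of the difference. EIF6 itself changed by -0.06 in H69 and -0.72 in H69M, with a difference of 0.66 (SE 0.587).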

How the data were processed

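The authors deposited raw read counts per gene for 16 libraries. Per the submitters' processing notes STAR, HTSeq and GRCh38 (hg38) were used; versions, gene annotation and strand setting are not given in the sources used here. The labels' protocols name a NEBNext Ultra library kit. Whether genes that overlap on either strand, or have near-identical copies, share or trade reads in these counts was not tested.

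Counts were fitted in R 4.3.3 with edgeR 4.0.16 (quasi-likelihood test, robust), with a mean for each of 8 groups over all 16 libraries, TMM scaling and filterByExpr at a minimum count of 10. There were 8 residual degrees of freedom, and the common dispersion was 0.153. Benjamini-Hochberg adjustment ran over the 23100 genes tested, and the limit was 0.05. Intervals are at 95%. The labels do not say that libraries of a group are separate cultures, so p-values measure the spread between 2 libraries a group, which may be technical. CPM use TMM-scaled totals; loading per numbered pair is the difference of log2 CPM with a prior count of 2. The test was run on simulated data with known changes, and the numbers of changed genes it called are given above.

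Within H69, libraries with the same number deviated together from their group means in all 6 pairs of groups (r = 0.168 to 0.280). Loading values were therefore computed within a number. The main fit has no block for the number, so the SEs of single genes given above include the spread between numbers. They also include the spread between H69M libraries, since H69 and H69M share the estimate for each gene. Fits with the number as a block are alternatives, as are RLE and total-count scaling, no filter, DESeq2 1.42.0, H69 alone, voom from limma 3.58.1, a filter that asks for 50 counts in 2 or more libraries, a table without mitochondrial genes and rRNA, and fits that omit each library once. After the data had been seen, 3 kinds were added: leaving out both H69 shNTC libraries numbered 1, the number block within each fraction, and summing genes that share at least 1 exon base on a strand.

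Genes are named by a rule: EIF6, called genes, the 12 in each direction with the smallest p among genes with a mean count of at least 100 in the highest H69 group and non-overlapping loadings (no clone, antisense, pseudogene or readthrough names), the extremes of each list by p and by change, and a fixed panel. The members and the 31 lists were chosen with earlier results of these data known. Transcript features and overlaps are from GENCODE v29, which matched 29502 names, and promoters from RefSeq GRCh38.p14.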

Additional observations from a re-analysis of the deposited data

How the results depend on the processing

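The count of genes with a changed loading was 0 in the fit of all libraries and also with the replicate block within each line or by numbered pair, both scalings, both filters, limma-voom, and without mitochondrial and ribosomal RNA genes. It was 3 by DESeq2, 3 with the H69 libraries alone, 8 with the H69 libraries alone and the block by pair (3 with overlapping genes summed), 1 with the block by number within each fraction over all libraries, and 4 with that block over H69 alone (0 with overlapping genes summed). Leaving out a library gave 0 to 2. The difference between lines had 0, 2 by DESeq2, 1 without both H69 shNTC libraries numbered 1, and 0 to 1 with a library left out. The block was fitted for the change of loading and the difference between lines, not for the polysomal against cytoplasmic calls of each cell, and it changed no other call of the first pair. Of 720 combinations of a leading gene and an alternative, 9 passed the limit; since these genes were picked by this contrast, their signs under refits of the same libraries show no stability. Summing overlapping genes, not among the 720, turned the sign at ERCC5 (0.21), ZNF468 (0.20) and PCDHAC2 (0.03). The medians of all 31 lists changed sign under some alternative, in 139 of 867 combinations, and 40 moved by more than the spread between pairs. Omitting a library also leaves the library numbers unbalanced between the groups, so sign changes there do not measure the hairpin difference alone. In H69 alone with the number block, the median of large-subunit ribosomal proteins was -0.06, as in the main fit. That of YAP and TEAD targets was -0.01, against 0.26 in the main fit. Depth was not varied, so its part was not tested; the median SE was 1.25 for YAP and TEAD targets, of which H69 has few counts, and 0.443 for large-subunit ribosomal proteins.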
